A study of Mus musculus with 6 samples.

Results

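The genes described here are the Hox cluster genes, taken as every gene symbol made of Hox, a cluster letter from a to d and a paralog number. The deposited tables held 39 such genes among 48401 gene symbols: 11 in HoxA on chromosome 6, 10 in HoxB on chromosome 11, 9 in HoxC on chromosome 15 and 9 in HoxD on chromosome 2. They were measured by bulk RNA sequencing of dorsal root ganglia, the sensory ganglia beside the spinal cord, taken at lumbar levels 4 and 5 of C57BL/6J males 8 weeks of age. A small interfering RNA had been injected intrathecally, which gave 3 libraries from mice given siNC, taken here as the control, and 3 from mice given siCLAP. The labels give neither the dose, the time between injection and dissection, nor whether each library came from its own mouse, so that every p-value below measures only the spread between these libraries. No row of the tables was named CLAP, so the level of the target was not analysed here.

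Hox genes encode homeodomain transcription factors, and those with the same paralog number in different clusters descend from the same ancestral gene. In each cluster the genes lie in the order in which they are used along the body axis, with low numbers active from the hindbrain backwards and high numbers active only in the caudal trunk. Neurons and the connective tissue around them keep much of this pattern in adult life, and in the spinal cord and its ganglia the genes with paralog numbers 10 and 11 are known for their part in setting lumbar identity.

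Every library held Hox transcripts up to paralog group 11 and none with a count above 2 beyond it, and it was at numbers 10 and 11 of HoxC and HoxD that libraries differed most. Hoxd10, Hoxd11 and Hoxc11 had lower group means in siCLAP and varied widely from library to library, while Hoxb7, Hoxb8, Hoxb9 and Hoxa9 were slightly higher in all 3 siCLAP libraries. None of these differences passed edgeR's quasi-likelihood test after adjustment over all genes tested. The expected counts summed to between 21386768 and 46317735 per library. The sum of 7 interferon-stimulated genes stood apart in siNC-3 and siCLAP-2, at 672 and 720 TPM (the deposited length-scaled transcripts-per-million unit), against 421 to 440 TPM in the other libraries.

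The sequence just upstream of the start site is shown for the HoxD genes on either side of the point where the libraries part, Hoxd9, Hoxd10 and Hoxd11, and for Hoxb8, the HoxB gene with the smallest p-value. The sequences come from RefSeq on build GRCm38.p6, plus strand, and each ends before the first base of the gene in GENCODE M21. In the HoxD sequences capitals mark CG dinucleotides. In Hoxb8 they mark TTTATNG and TTTACGA on either strand, the letters usually given for binding by caudal-type (Cdx) and posterior Hox proteins. The stretches lie at chr2:74697513-74697726 for Hoxd9, chr2:74691641-74691890 for Hoxd10, chr2:74679308-74679556 for the start site of Hoxd11 farther from Hoxd10, and chr11:96281655-96281904 for Hoxb8.
Hoxd9: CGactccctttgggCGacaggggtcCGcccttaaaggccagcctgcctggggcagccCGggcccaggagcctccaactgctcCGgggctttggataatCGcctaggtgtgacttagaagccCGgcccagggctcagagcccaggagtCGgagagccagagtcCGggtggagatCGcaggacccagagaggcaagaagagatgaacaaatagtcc
Hoxd10: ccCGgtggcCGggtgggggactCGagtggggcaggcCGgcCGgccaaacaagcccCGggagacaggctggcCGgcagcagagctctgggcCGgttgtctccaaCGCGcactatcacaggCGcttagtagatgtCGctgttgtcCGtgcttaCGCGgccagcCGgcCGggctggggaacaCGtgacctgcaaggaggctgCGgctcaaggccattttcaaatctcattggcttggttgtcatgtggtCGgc
Hoxd11: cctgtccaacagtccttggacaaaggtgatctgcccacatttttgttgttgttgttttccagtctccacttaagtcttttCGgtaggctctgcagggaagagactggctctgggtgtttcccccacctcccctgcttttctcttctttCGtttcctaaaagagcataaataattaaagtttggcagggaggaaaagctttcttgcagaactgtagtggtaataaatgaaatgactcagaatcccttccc
Hoxb8: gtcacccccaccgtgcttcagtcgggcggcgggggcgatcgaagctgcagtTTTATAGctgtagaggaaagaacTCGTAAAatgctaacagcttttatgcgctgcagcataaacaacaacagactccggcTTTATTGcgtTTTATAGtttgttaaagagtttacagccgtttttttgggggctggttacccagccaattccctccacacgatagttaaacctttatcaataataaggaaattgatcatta

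The Hoxd10 stretch held 20 CG dinucleotides in 250 bases and the Hoxd9 stretch 10 in 214 bases, while the Hoxd11 stretch held 2 in 249 bases. The window at the other Hoxd11 start site, chr2:74682073-74682322, lies inside the gene as GENCODE gives it and is not printed, and it held 20, as many as Hoxd10. A RefSeq window was at hand for 22 of the 39 genes, 24 windows in all. The median ratio of observed to expected CG was 0.721 over these windows and 0.373 over all 32851 windows of 250 bases. Hoxb8 was the sequence in which the motif letters clustered, with 3 copies of TTTATNG and 1 of TTTACGA. Over all windows, 9.81% held TTTATNG at least once, 0.0487% held it 3 times or more, and 0.478% held TTTACGA. Of the Hox windows, 2 held TTTATNG and 1 held TTTACGA. The letters describe the sequence only, since binding was not measured.

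Read along the clusters, the levels showed how far toward the caudal end Hox transcripts reached in these ganglia. TPM is scaled for transcript length, so levels can be compared between genes. Of the 39 Hox genes, 31 had a mean of at least 1 TPM over the 6 libraries: 9 in HoxA, 8 in HoxB, 7 in HoxC and 7 in HoxD. Hoxa9 was the most abundant, with a mean of 45.5 TPM, followed by Hoxa7 at 36.3, Hoxa10 at 34.7 and Hoxd1 at 30.9. The range of Hoxa9 lay above that of every other Hox gene, while those of Hoxa7 and Hoxa10 overlapped. Below Hoxd1, the ranges of neighbours in the order overlapped for most pairs, so that the order there is not resolved by these libraries.

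**Figure D1:**
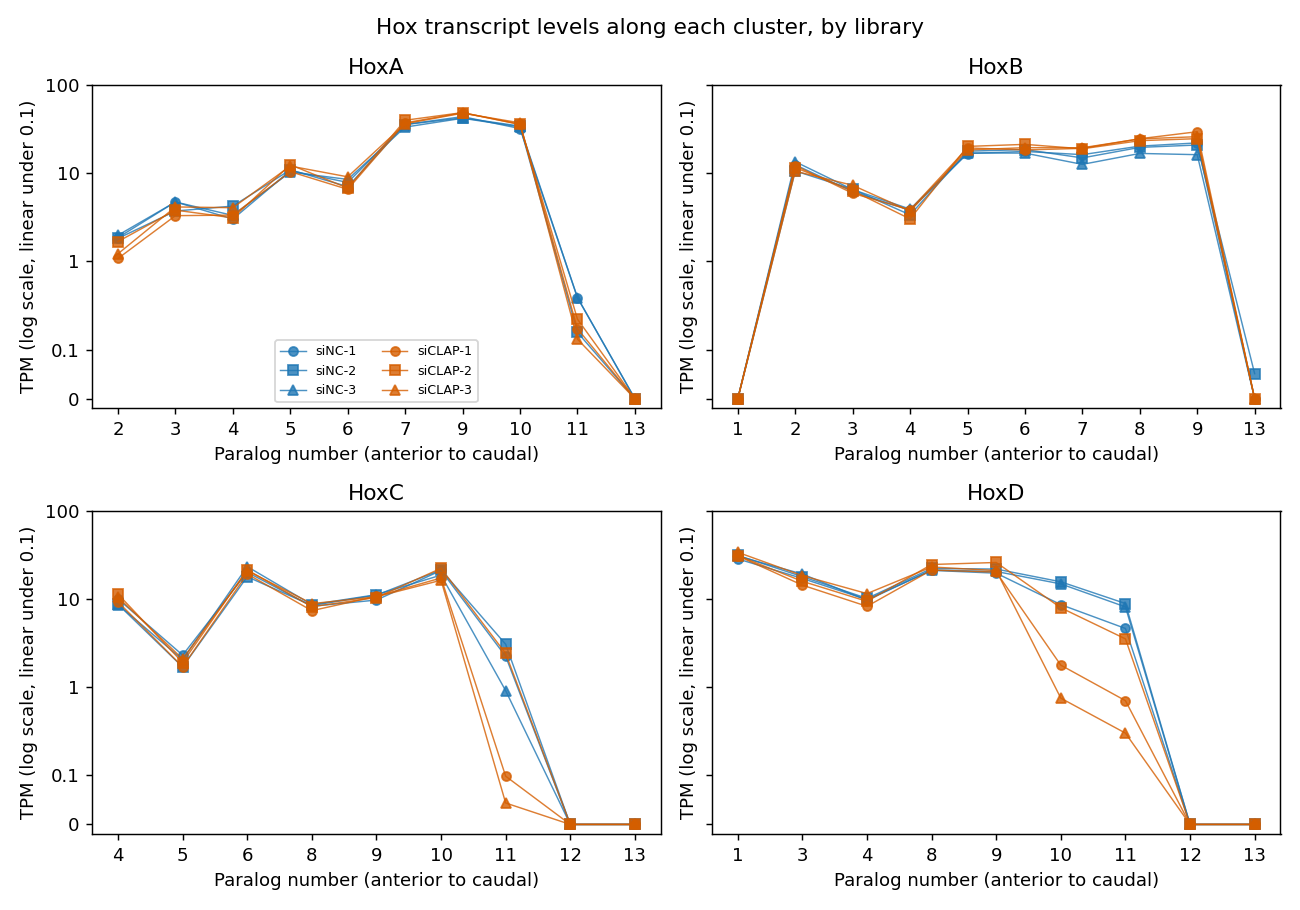
TPM of each Hox gene reported here (vertical axis, logarithmic above 0.1 TPM and linear below) against its paralog number, anterior to caudal, with one panel per cluster and one line per library (siNC blue, siCLAP orange). The 6 lines run close together up to number 9 and spread apart at Hoxc11, Hoxd10 and Hoxd11 before ending at or near 0.

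In HoxA the level climbed from Hoxa2, at 1.08 to 1.98 TPM, to Hoxa9, at 41.9 to 48.6 TPM, and ended abruptly after Hoxa10, at 32.0 to 37.2 TPM. Between these ends, Hoxa3 stood at 3.30 to 4.73 TPM, Hoxa4 at 3.02 to 4.24, Hoxa5 at 10.3 to 12.5, Hoxa6 at 6.56 to 9.09 and Hoxa7 at 33.3 to 39.8. Hoxa11, the next gene, reached no more than 0.389 TPM, from 4 to 14 counts per library. In HoxB the level lay between 12.6 and 29.5 TPM for Hoxb5 to Hoxb9 and was lower for Hoxb3, at 5.91 to 7.29 TPM, and Hoxb4, at 3.03 to 3.91 TPM. Hoxb2, the most anterior HoxB gene detected, stood above both at 10.5 to 13.5 TPM. HoxC ran from Hoxc4 to Hoxc11, with Hoxc6 at 17.8 to 23.3 TPM and Hoxc10 at 16.3 to 22.2 TPM as its most abundant genes. The others were Hoxc4 at 8.64 to 11.3, Hoxc5 at 1.69 to 2.31, Hoxc8 at 7.36 to 8.84 and Hoxc9 at 9.71 to 11.2 TPM. HoxD was the cluster in which the most anterior gene was the highest: Hoxd1 stood at 28.4 to 33.8 TPM, above Hoxd3 at 14.3 to 19.1 TPM and Hoxd4 at 8.25 to 11.5 TPM. Hoxd8 stood at 21.1 to 24.6 TPM.

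Beyond paralog group 11 almost nothing was detected in any library. Inside that group, Hoxc11 had only 3 counts in siCLAP-1 and 1 count in siCLAP-3. Hoxa13, Hoxb1, Hoxc12, Hoxc13, Hoxd12 and Hoxd13 had a count of 0 in all 6 libraries, and Hoxb13 had 2 counts in siNC-2 and none elsewhere. Paralog groups 12 and 13, whose genes pattern the sacral and tail region, therefore gave at most 2 counts in any library. A count of 0 allows up to 0.0648 CPM (counts-per-million) in siNC-2, the deepest library, and up to 0.140 in siNC-3, the shallowest, counting error only. The libraries, labelled as lumbar, thus held transcripts of paralog groups 10 and 11 and almost none of groups 12 and 13. Paralog group 11 was low in siCLAP-1 and siCLAP-3, at a sum of 0.974 and 0.477 TPM. No ganglia of another level were measured, so the level dissected was not tested.

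The contrast of siCLAP against siNC asks whether the injected siRNA went with a different Hox profile. On the quantity fitted, the log2 fold change of siCLAP over siNC with its standard error (SE), 16 of the 31 genes had a positive value and 15 a negative one. Their median was 0.0050, beside -0.0018 over all 19141 genes tested. None of the 31 passed edgeR's quasi-likelihood test at an adjusted p under 0.05, where 0.293% of all genes tested did in either direction. The smallest adjusted p was 0.0739, for Hoxb8. At an unadjusted p under 0.05, 6 genes were higher (19.4%), beside 8.22% of all genes, and 3 were lower (9.68%), beside 8.75% of all genes.

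Counted by overlap, which does not depend on the model, 7 Hox genes had all 3 siCLAP libraries above all 3 siNC libraries in normalised CPM, and 3 had all 3 below. These were 22.6% and 9.68% of the 31 genes, beside 10.9% and 10.7% of all genes tested. The genes above were Hoxa7, Hoxa9, Hoxa10, Hoxb5, Hoxb7, Hoxb8 and Hoxb9, and those below were Hoxa2, Hoxd10 and Hoxd11. In the other 21 the groups overlapped. The share below was close to the background. With 1 library left out, groups separate more easily and the shares over all genes were larger too. The count above became 11 of 31 (35.5%) without siNC-2, beside 19.4% of all genes, and 11 without siCLAP-1, beside 13.9%. The count below became 6 of 31 (19.4%) without siCLAP-2, beside 14.6% of all genes, and 6 without siCLAP-3, beside 20.0%.

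**Figure D2:**
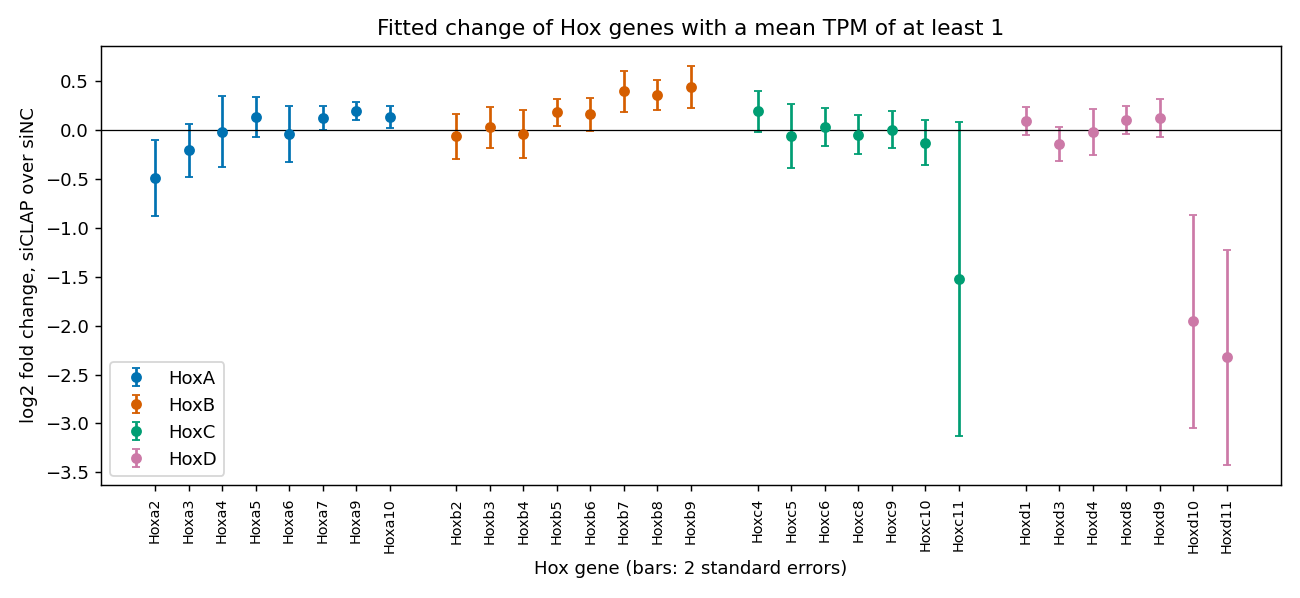
Fitted log2 fold change of siCLAP over siNC (vertical axis) for the Hox genes reported here with a mean of at least 1 TPM, ordered by cluster and paralog number, with bars of 2 standard errors. Hoxc11, Hoxd10 and Hoxd11 lie at -1.52, -1.96 and -2.32 with wide bars, and the other genes lie between -0.49 and 0.44.

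Hoxd10, a paralog group 10 gene that helps to set lumbar motor neuron identity and hindlimb innervation, spans chr2:74691924-74695105. It stood at 8.62, 15.6 and 14.8 TPM in the siNC libraries and at 1.78, 7.94 and 0.750 TPM in the siCLAP libraries, each in the order 1, 2 and 3, which is kept below. The siCLAP libraries were the lowest 3, but siCLAP-2 came close to siNC-1. The group means were 13.02 ± 3.83 TPM in siNC and 3.49 ± 3.89 TPM in siCLAP (SD, n = 3 each). The log2 fold change was -1.96 ± 0.55 (SE), 3.88-fold lower, with an adjusted p of 0.117 by edgeR's quasi-likelihood test.

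Hoxd11, its caudal neighbour, spans chr2:74679557-74687016 and serves in patterning of the limb and of the caudal spine. Its values were 4.63, 8.87 and 8.12 TPM in the siNC libraries in order and 0.703, 3.53 and 0.301 TPM in the siCLAP libraries. The 6 libraries fell in the same order as for Hoxd10. The log2 fold change was -2.32 ± 0.55 (SE), 5.01-fold lower, with an adjusted p of 0.0856 by edgeR. Hoxd10 and Hoxd11 are separated by 4907 bp, and both share some exon sequence with the noncoding transcript Gm28309, 5.73% of Hoxd10's exon bases and 10.8% of Hoxd11's.

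Hoxc11, the HoxC gene of the same paralog group, lies on another chromosome, at chr15:102954427-102957708. It stood at 2.24, 3.06 and 0.913 TPM in the siNC libraries and at 0.0984, 2.41 and 0.0437 TPM in the siCLAP libraries. The groups overlapped, since siCLAP-2 was above both siNC-1 and siNC-3, and the values of siCLAP-1 and siCLAP-3 rest on 3 counts and 1 count. The log2 fold change was -1.52 ± 0.80 (SE), with an adjusted p of 0.360 by edgeR.

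**Figure D3:**
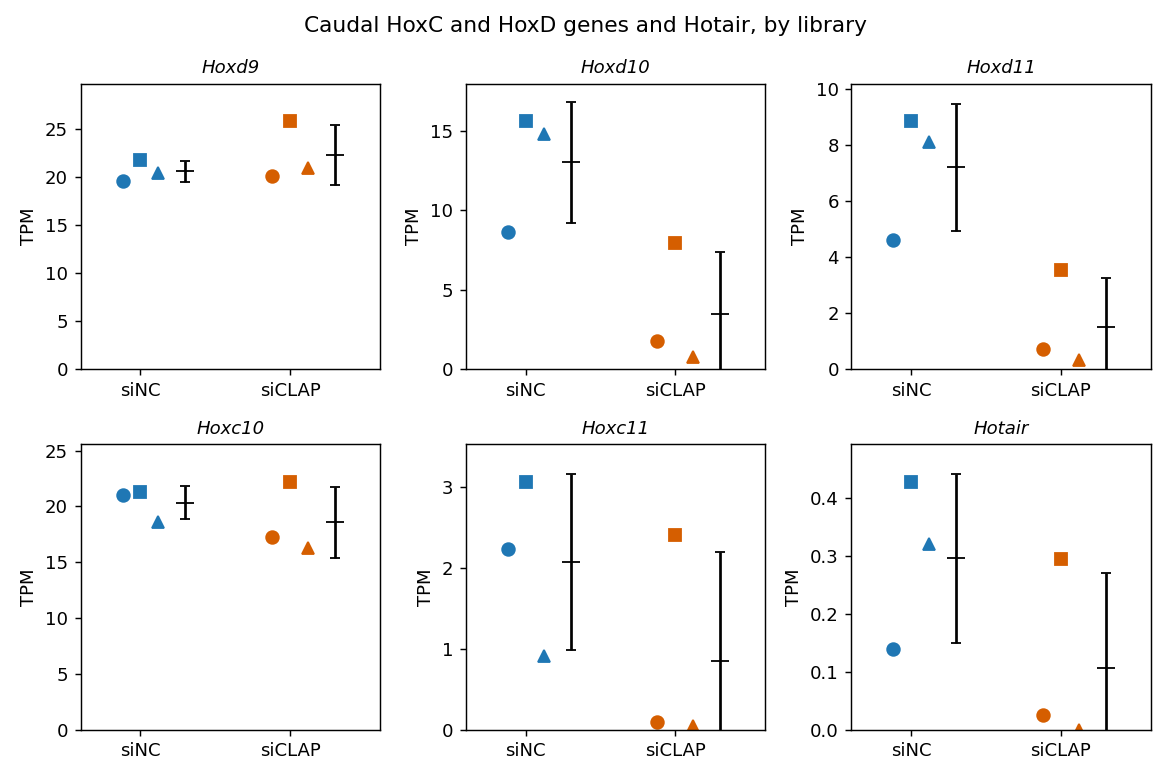
TPM by library (vertical axis, from 0) for Hoxd9, Hoxd10, Hoxd11, Hoxc10, Hoxc11 and the antisense RNA Hotair, siNC in blue and siCLAP in orange, with circle, square and triangle for libraries 1, 2 and 3 and bars for the mean and SD, cut at 0. siCLAP-1 and siCLAP-3 are the lowest libraries in 5 of the panels, and in Hoxd9 all libraries lie between 19.6 and 25.9 TPM.

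In HoxD the step lay between neighbouring genes. Hoxd9, 2621 bp from Hoxd10, stood at 19.6, 21.8 and 20.5 TPM in siNC and 20.1, 25.9 and 20.96 TPM in siCLAP, with a log2 fold change of 0.12 ± 0.098 (SE, adjusted p = 0.549 by edgeR). The ratio of Hoxd10 to Hoxd9 was 0.440, 0.717 and 0.723 in siNC and 0.0882, 0.307 and 0.0358 in siCLAP. The ratio of Hoxd11 to Hoxd10 varied far less, from 0.537 to 0.568 in siNC and from 0.396 to 0.444 in siCLAP, so that the levels of these neighbours varied together across libraries. In HoxC the step lay between Hoxc10 and Hoxc11, 9087 bp apart. Hoxc10 stood at 21.02, 21.3 and 18.6 TPM in siNC and 17.3, 22.2 and 16.3 TPM in siCLAP.

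Hoxa10, the HoxA paralog of Hoxd10, did not share its pattern. It stood at 32.0, 34.2 and 33.4 TPM in siNC and at 35.8, 35.6 and 37.2 TPM in siCLAP, with a log2 fold change of 0.14 ± 0.056 (SE, adjusted p = 0.247 by edgeR). The ratio of Hoxd10 to Hoxa10, in which library size cancels, was 0.269, 0.457 and 0.442 in siNC and 0.0496, 0.223 and 0.0202 in siCLAP. The difference of the mean log2 ratios was -2.64. It is given with no test, since the groups had already separated in opposite directions for the 2 genes and their ratio could not but separate too.

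The spread inside a group set Hoxd10, Hoxd11 and Hoxc11 apart from the other Hox genes as much as the contrast did. The highest siCLAP library exceeded the lowest by 10.6-fold for Hoxd10, 11.7-fold for Hoxd11 and 55.1-fold for Hoxc11, and by a median of 1.20-fold for the other 28 genes. Among 5631 genes with a mean of 4 to 16 TPM and no 0, the median of this ratio was 1.17, and 4 genes, Hoxd10 included, were at least as widely spread as Hoxd10. Inside siNC the ratio was 1.81 for Hoxd10 and 1.92 for Hoxd11, beside a median of 1.17 for the same genes. There the spread was less unusual: 322 of these genes (5.72%) were at least as widely spread as Hoxd10 and 265 (4.71%) as Hoxd11. For Hoxd10, the 10.6-fold range among siCLAP libraries given the same siRNA was thus wider than the fitted difference between groups, 3.88-fold by edgeR. The first compares single libraries and the second is a fitted average, so they are unlike measures.

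Whether these genes passed depended on siCLAP-2 and on the settings of the fit. Without siCLAP-2, Hoxd10 stood at a log2 fold change of -3.29 and Hoxd11 at -3.74, both with an adjusted p of 0.00712, and Hoxc11 at -4.78 with an adjusted p of 0.0255 by edgeR, in a fit in which 0.209% of all genes passed. Without both libraries with high interferon genes, siNC-3 and siCLAP-2, the same 3 genes passed, at -3.21, -3.67 and -5.06, in a fit in which 0.0679% of all genes passed. With no filter on low values, Hoxd10 and Hoxd11 passed as lower (adjusted p = 2.38e-05 and 1.80e-06 by edgeR) and Hoxb7, Hoxb8 and Hoxb9 as higher (0.0425, 0.00568 and 0.00153), where 2.75% of all genes did. With the replicate number as a block, Hoxd11 passed as lower, where 1.06% of all genes did.

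Summed over a paralog group, the caudal values followed the same libraries. Paralog group 11 summed to 7.25, 12.1 and 9.43 TPM in siNC and to 0.974, 6.16 and 0.477 TPM in siCLAP. Paralog group 10, of which Hoxa10 is the largest part, summed to 61.7, 71.1 and 66.9 TPM in siNC and to 54.9, 65.8 and 54.2 TPM in siCLAP, and its groups overlapped. The share of paralog groups 10 to 13 in all Hox TPM was 15.7%, 18.4% and 17.4% in siNC and 12.6%, 15.0% and 11.9% in siCLAP, a difference of means of -3.96 percentage points. The 2 sums and this share contain Hoxd10, Hoxd11 or both, whose groups had already separated, so they are no further result. The sum of all Hox genes was 439 to 453 TPM in siNC and 442 to 478 TPM in siCLAP.

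In paralog groups 7 to 9, 8 of 9 genes had a positive log2 fold change, with a median of 0.13, and 0 of 9 passed edgeR's test. Over all genes tested the median was -0.0018, so that positive values were no majority there. This band was not among the planned comparisons, and several of its genes are neighbours in a cluster, so they are not independent observations. The values were near 0 in HoxC and largest in HoxB, where Hoxb7, Hoxb8 and Hoxb9 lie side by side at chr11:96271457-96290162 with gaps of 5309 and 1307 bp and share no exon sequence with other genes. These genes pattern the thoracic axis, and Hoxb8 is known for its part in dorsal horn and sensory neuron development.

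Hoxb8 stood at 20.3, 19.6 and 16.7 TPM in siNC and at 24.6, 23.4 and 24.5 TPM in siCLAP, with group means of 18.9 ± 1.87 and 24.1 ± 0.669 TPM (SD, n = 3 each). Its log2 fold change was 0.36 ± 0.077 (SE), 1.29-fold higher, with an adjusted p of 0.0739 by edgeR. Hoxb9 stood at 22.0, 20.8 and 16.2 TPM in siNC and at 29.5, 24.6 and 25.9 TPM in siCLAP, a log2 fold change of 0.44 ± 0.11 (SE), 1.36-fold higher (adjusted p = 0.0905 by edgeR). In both genes every siCLAP library lay above every siNC library, and siNC-3 was the lowest of all 6.

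Hoxb7 showed the same order. It stood at 16.2, 14.9 and 12.6 TPM in siNC and at 19.1, 18.9 and 19.4 TPM in siCLAP, a log2 fold change of 0.40 ± 0.11 (SE, adjusted p = 0.102 by edgeR). Toward the anterior end of HoxB the values became smaller: Hoxb6 was at 0.16 ± 0.083, Hoxb5 at 0.18 ± 0.068, and Hoxb4, Hoxb3 and Hoxb2 between -0.062 and 0.033. As a cluster HoxB summed to 115, 112 and 103 TPM in siNC and to 133, 129 and 129 TPM in siCLAP, without overlap. That sum contains Hoxb5, Hoxb7, Hoxb8 and Hoxb9, whose groups had already separated, so it is no further result.

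**Figure D4:**
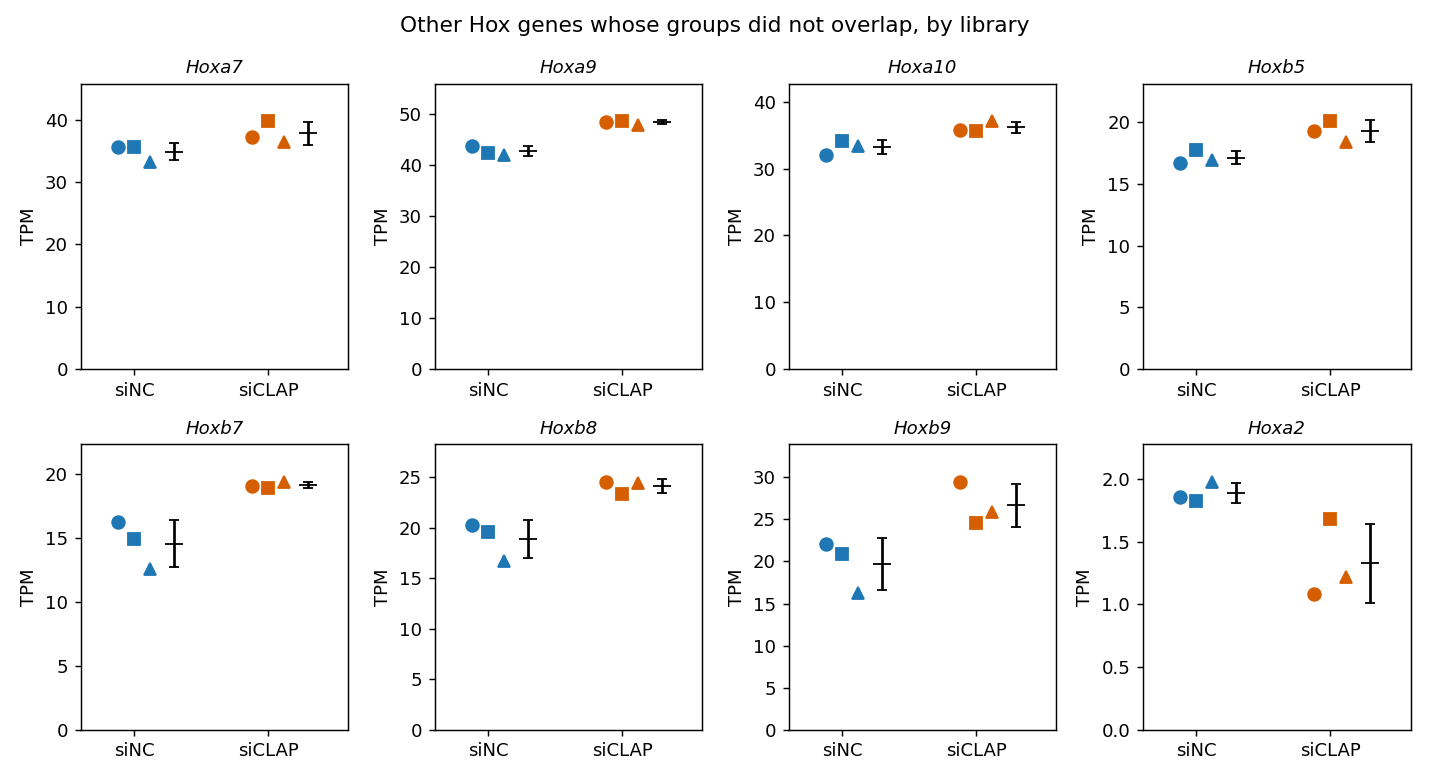
TPM by library (vertical axis, from 0) for the 8 Hox genes other than Hoxd10 and Hoxd11 whose groups did not overlap in normalised CPM, siNC in blue and siCLAP in orange, with circle, square and triangle for libraries 1, 2 and 3 and bars for the mean and SD. The differences are small beside the levels: Hoxa9 lies at 41.9 to 43.7 TPM in siNC and 47.8 to 48.6 TPM in siCLAP.

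Hoxa9, a gene of the thoracic to lumbar transition, had the smallest SE of the 31 fitted values. Its values were 43.7, 42.3 and 41.9 TPM in siNC and 48.4, 48.6 and 47.8 TPM in siCLAP, with a log2 fold change of 0.19 ± 0.045 (SE) and an adjusted p of 0.0836 by edgeR. Hoxa7 stood at 33.3 to 35.6 TPM in siNC and 36.3 to 39.8 TPM in siCLAP, at 0.13 ± 0.061 (SE). Hoxc9 and Hoxc8 stayed close to 0, at 0.0050 and -0.044, and Hoxd8 stood at 0.10 ± 0.070. Paralog group 9 summed to 95.1, 96.0 and 89.7 TPM in siNC and to 109, 109 and 105 TPM in siCLAP, without overlap. This sum contains Hoxa9 and Hoxb9, whose groups had already separated, so it is no further result. DESeq2 called Hoxa9, Hoxb8 and Hoxb9 as higher, with adjusted p of 0.0438, 0.00879 and 0.00484, where 4.48% of genes with an adjusted p passed, and called no Hox gene as lower. In it 5 of the 31 Hox genes, Hoxc11 and Hoxa2 among them, had no adjusted p and could not be called. In DESeq2 the adjusted p of Hoxd10 was 0.277 and that of Hoxd11 was 0.188.

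The anterior genes of HoxA, HoxC and HoxD reported here had log2 fold changes from -0.49 to 0.19, with SE from 0.070 for Hoxd1 to 0.19 for Hoxa2. Hoxa2, Hoxa3 and Hoxa4, which pattern the hindbrain and neck, had negative log2 fold changes, from -0.49 to -0.014. Hoxa2 stood at 1.86, 1.82 and 1.98 TPM in siNC and at 1.08, 1.68 and 1.22 TPM in siCLAP, the only one of these 3 whose groups did not overlap, at -0.49 ± 0.19 (SE, adjusted p = 0.239 by edgeR). Hoxa5 stood at 0.14 ± 0.10 and Hoxa6 at -0.039 ± 0.14. In HoxC, Hoxc4 was at 0.19 ± 0.11, Hoxc5 at -0.060 and Hoxc6 at 0.033. In HoxD, Hoxd1, known in nociceptive sensory neurons, was at 0.096 ± 0.070, Hoxd3 at -0.14 ± 0.089 and Hoxd4 at -0.017. Hoxd3 and Hoxd4 share 62.8% and 52.3% of their exon bases with other annotated genes, and Hoxb3 52.9%, so that their counts depend on how shared reads were assigned.

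Other transcripts of the clusters gave no call. Hotair, a noncoding RNA on the strand opposite to the HoxC genes at chr15:102944062-102947730, between Hoxc12 and Hoxc11, was below the filter and is named after its values were seen. It stood at 0.139, 0.428 and 0.320 TPM in siNC and at 0.0246, 0.295 and 0 TPM in siCLAP, from at most 20.5 counts. Its lowest libraries were again siCLAP-3 and siCLAP-1. Haglr, a noncoding RNA between Hoxd3 and Hoxd1, stood at 6.14 to 7.29 TPM in all libraries. Of 15 cluster noncoding RNAs, 10 were tested and 0 passed, with a median log2 fold change of 0.027, Hoxaas2 standing at -0.36 ± 0.14 and Hoxd3os1 at 0.38 ± 0.17. The library kit does not mark strand, so reads of a Hox gene and of its antisense partner cannot be told apart.

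Genes that act with, next to or on the Hox genes were counted from lists. Of 9 Hox cofactors of the Meis, Pbx and Pknox families, which bind DNA together with Hox proteins, all were tested and 0 passed (median -0.052), with Meis3 at -0.13 ± 0.061. Of 18 genes flanking the clusters, 12 were tested and 0 passed (median 0.057), with Ttll6 beyond the caudal end of HoxB at -0.49 ± 0.13 and Mtx2 beyond the anterior end of HoxD at 0.20 ± 0.058. Of 24 regulators, the caudal, polycomb and trithorax proteins that start or keep Hox expression, 21 were tested and 0 passed (median -0.00090). Kmt2a, a histone methyltransferase that keeps Hox genes active, stood at -0.20 ± 0.067 and Cbx7, a polycomb protein, at -0.16 ± 0.059. Cdx2 and Cdx4 had a count of 0 in every library.

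Marker lists of the cells that a ganglion sample can hold were read beside these values, since in bulk tissue fewer cells of a type and less RNA per cell cannot be told apart. The ganglion origin was clear: 10 sensory neuron markers summed to 13629 to 14196 TPM in siNC and to 14478 to 14927 TPM in siCLAP, and 0 of 10 passed edgeR's test (Isl1 at 0.16 ± 0.048, Nefh at 0.21 ± 0.066). Every siCLAP sum of these lay above every siNC sum, and 8 of the 10 had a positive log2 fold change. Markers of the leptomeninges, the membranes around the cord and roots, also moved with the groups. All 9 were detected and 8 were tested, 0 passed, and 7 of 8 had negative values, with a median log2 fold change of -1.12. Their sum was 134, 40.96 and 145 TPM in siNC and 39.8, 29.1 and 24.9 TPM in siCLAP. Ptgds stood at -2.96 ± 0.56 (adjusted p = 0.056 by edgeR) and Slc47a1 at -1.78 ± 0.38.

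Library by library, every siCLAP library had a lower leptomeningeal sum (24.9 to 39.8 TPM) than every siNC library (40.96 to 145 TPM). Hoxd10 split in the same way, at 0.750 to 7.94 TPM against 8.62 to 15.6 TPM. Group can therefore not be told apart here from leptomeningeal content, nor from the sensory neuron sum, which also separated the groups. Inside siNC the order differed, since siNC-2 had the lowest leptomeningeal sum and the highest Hoxd10 level. The fit without siNC-1 and siNC-3, which had the highest leptomeningeal sums, sets siNC-2 alone against the 3 siCLAP libraries. It assumes that siNC-2 varies as they do. In this fit Hoxd10 stood at -2.24 and Hoxd11 at -2.64. Both values were bound to be negative, since siNC-2 had the highest level of both genes. The part of cell content in the values of Hoxd10, Hoxd11, Hoxc11 and the HoxB genes was not tested.

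**Figure D5:**
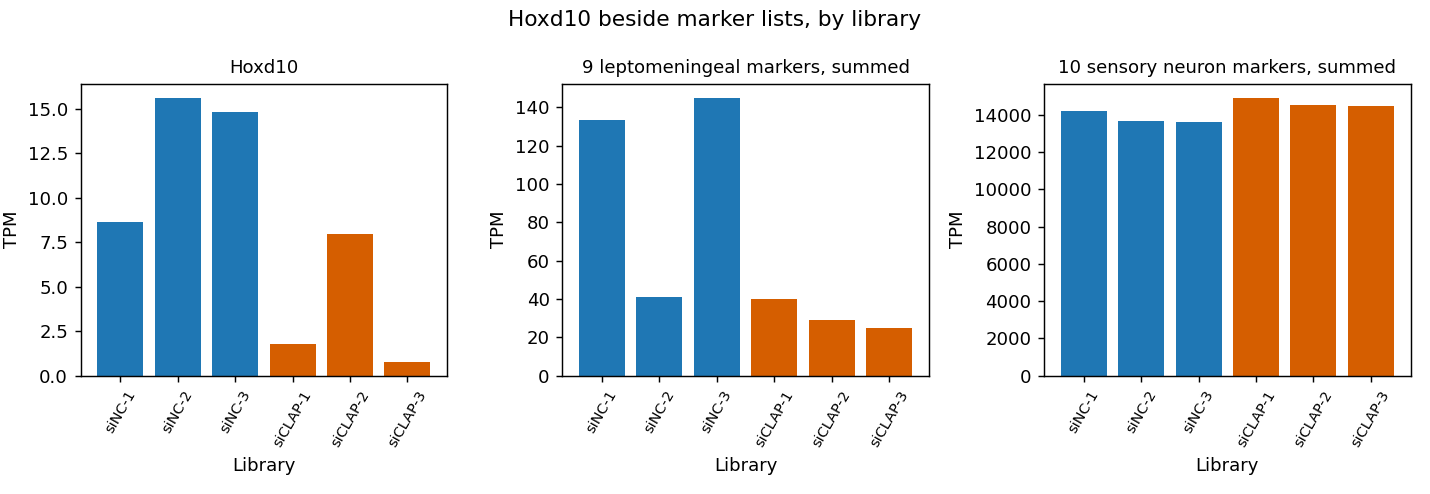
TPM by library (vertical axes, each from 0) of Hoxd10, of 9 leptomeningeal markers summed and of 10 sensory neuron markers summed, siNC in blue and siCLAP in orange. The siCLAP libraries have the lower leptomeningeal sums, 24.9 to 39.8 TPM against 40.96 to 145 TPM in siNC, and the lower Hoxd10 levels. Their sensory neuron sums are the higher ones.

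The other lists moved less. Of 6 satellite glia markers, Ednrb rose (0.45 ± 0.070, adjusted p = 0.0317 by edgeR), and of 6 Schwann cell markers, Egr2 fell (-0.76 ± 0.13, adjusted p = 0.0389). In both lists the other 5 did not pass. Fibroblast markers, 6 of 6 tested and 0 passed, summed to 344 to 525 TPM in siNC and 372 to 600 TPM in siCLAP, with Lum at 0.67 ± 0.15 and Pdgfra at -0.20 ± 0.19. Of the 7 spinal cord glia markers, the oligodendrocyte genes Olig1, Olig2 and Opalin had at most 4 counts in any library and Mog 4 to 9 counts. The other 3 were detected, Aqp4 at 3.55 to 5.38 TPM, Slc1a2 at 1.06 to 1.61 TPM and Gfap at 0.716 to 3.72 TPM, and 0 of these 3 passed (Aqp4 at 0.23 ± 0.13, Slc1a2 at 0.25 ± 0.14). The list summed to 6.56 to 7.47 TPM in siNC and 6.58 to 10.7 TPM in siCLAP. Of the motor neuron list, Chat had at most 3 counts and Mnx1 at most 7, and 0 of the 2 tested passed (Isl2, which sensory neurons also express, at -0.036 ± 0.045, and Slc5a7 at 0.076 ± 0.22). Of 4 endothelial markers 0 passed (Cdh5 at -0.40 ± 0.12, Cldn5 at 0.29 ± 0.087), of 5 macrophage markers 0 passed (Cx3cr1 at 1.06 ± 0.38, C1qa at 0.20 ± 0.28), and of the skeletal muscle markers Ckm alone was tested, at 0.30 ± 0.34, and did not pass.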

How the data were processed

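Per the labels' protocols, total RNA of L4/5 ganglia was extracted with Trizol and made into NEBNext Ultra libraries, a kit that does not mark strand. The submitters' processing notes name FastQC 0.11.8, HISAT2 2.1.0, featureCounts 1.6.2 and build mm10. How reads matching several genes were counted, with which annotation and strand setting, is not given in the sources used here. Each deposited table holds expected counts by the authors, of which 66.5% are whole (within 1e-06), and deposited TPM, used for levels and sums.

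Expected counts were rounded and fitted with edgeR 4.0.16 (TMM normalisation, quasi-likelihood test, siCLAP against siNC, no covariate) in R 4.3.3, over 19141 genes with a mean of at least 1 TPM. P-values were adjusted by Benjamini-Hochberg over all of them, with a threshold of 0.05. The code was tested on simulated data. Alternatives were DESeq2 1.42.0, limma 3.58.1 on log2(TPM + 0.5) or log2(TPM + 0.1), voom, other size factors and filters, a replicate block, and leaving out libraries. Coordinates are those of GENCODE M21 on GRCm38, the assembly also called mm10.

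Hox genes above the filter are named. Of the other lists, the genes that passed are named and otherwise the 2 with the smallest p. One Hox gene and a list gene enter the fits and counts but are not reported here. The Hox genes and all lists were chosen with earlier results of these data known. The exclusion of siNC-1 together with siNC-3 was chosen after seeing the data.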

Additional observations from a re-analysis of the deposited data

How the results depend on the processing

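Of the 31 Hox genes, 21 kept the sign of their log2 fold change in all alternatives compared and 10 did not. There were 17 alternatives, or 16 for the 5 genes with no adjusted p in DESeq2. In at least 1 of them, 7 genes passed the test (Hoxa9, Hoxb7, Hoxb8, Hoxb9, Hoxc11, Hoxd10 and Hoxd11). The number called as lower, 0 of 31, was 2 with no filter, 1 with the replicate block, 3 without siNC-3 and siCLAP-2, and 0 to 3 with each library left out in turn. The number called as higher, also 0, was 3 in DESeq2 and 3 with no filter. The number whose groups do not overlap, 3 lower and 7 higher, ranged from 3 to 6 and from 7 to 11 with each library left out, beside 13.96% to 19.96% lower and 13.9% to 20.1% higher over all genes. The caudal share, -3.96 points for paralog groups 10 to 13, was -1.59 points for groups 9 to 13. The signs that turned were of values near 0. Without siNC-3 and siCLAP-2 they were Hoxa4 at 0.015, Hoxa6 at 0.078, Hoxb2 at 0.0016 and Hoxb4 at 0.093. Without siNC-1 and siNC-3, which leaves 1 siNC library, they were Hoxa6 at 0.081, Hoxb2 at 0.11, Hoxb3 at -0.017, Hoxb4 at 0.069, Hoxc5 at 0.15 and Hoxc9 at -0.069. In limma, Hoxc9 stood at -0.0092 and -0.0095 with pseudocounts of 0.5 and 0.1. With each library left out, the range was -0.13 to 0.18 for Hoxa4, -0.20 to 0.049 for Hoxa6, -0.15 to 0.0080 for Hoxb2, -0.055 to 0.097 for Hoxb3, -0.11 to 0.058 for Hoxb4, -0.18 to 0.057 for Hoxc5, -0.049 to 0.12 for Hoxc6, -0.11 to 0.020 for Hoxc8, -0.064 to 0.050 for Hoxc9 and -0.15 to 0.090 for Hoxd4. The cause was not tested. Libraries with the same number did not deviate together (correlations of 0.066, 0.0077 and -0.044 over 19141 genes). With 3 libraries per group this cannot exclude a pairing by number. With the replicate block, 1.06% of all genes passed, Hoxd11 among them (-2.48, adjusted p = 0.0471 by edgeR), beside 0.293% without it. Depth limits Hoxc11, Hoxa11 and Hotair, which rest on few counts in some libraries.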
